A study of Homo sapiens with 12 samples.

Results

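The 10 genes described here encode the kinases and mediators of the DNA damage checkpoint: the apical kinases ATM and ATR, the effector kinases CHEK1 and CHEK2, the CDK1 inhibitor kinase WEE1, and the mediators TOPBP1, CLSPN, MDC1, TP53BP1 and BRCA1. They were chosen by symbol, and all 10 were found among the 60902 genes measured. RNA was sequenced from A549/DDP, a cisplatin-resistant subline of A549, which was derived from a lung adenocarcinoma. Cisplatin (DDP) kills cells by linking DNA bases through platinum. The 12 libraries form 4 groups of 3. CON cells stayed in normal medium (2 g/L glucose, 10% FBS) through each 24 h cycle, and DDP cells received cisplatin in the same medium. TRF, a culture model of time-restricted feeding, limited normal medium to 6 h of every 24 h, the remaining 18 h being spent without serum and glucose, and the TRF + DDP group combined this schedule with cisplatin. No group of the parental, cisplatin-sensitive A549 line was analysed here, so every comparison was made inside the resistant line. The resistant line was maintained in DDP, and no source states a drug-free interval before the experiments, so the CON and TRF cells may have met the drug earlier. A dose and duration of DDP are stated beside the RT-qPCR of the study and not for the libraries themselves. The study calls the members of a group biological replicates, the labels do not say what separates them, and the p-values below measure the spread between these libraries.

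ATR, brought to RPA-coated single-stranded DNA at stalled replication forks and switched on by TOPBP1, phosphorylates CHEK1 with the help of the adaptor CLSPN (claspin). ATM responds to double-strand breaks and phosphorylates CHEK2, while MDC1, TP53BP1 (53BP1) and BRCA1 assemble on the chromatin around the break and steer its repair. Both arms restrain the CDC25 phosphatases, and WEE1 phosphorylates CDK1 directly, so that a damaged cell does not enter mitosis. Cisplatin adducts block replication forks and are a classical trigger of the ATR arm. These proteins act mainly through phosphorylation, which mRNA levels do not measure.

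In GENCODE release 29 (GRCh38; the sources used here do not name the authors' build) ATM (ENSG00000149311) lies at chr11:108222484-108369102 on the plus strand and ATR (ENSG00000175054) at chr3:142449235-142578826 on the minus strand. CHEK1 (ENSG00000149554, chr11:125625136-125676255) and WEE1 (ENSG00000166483, chr11:9573681-9593457) are on the plus strand, and CHEK2 (ENSG00000183765, chr22:28687743-28742422) is on the minus strand. All 5 mediators are on the minus strand: TOPBP1 (ENSG00000163781) at chr3:133598175-133662380, CLSPN (ENSG00000092853) at chr1:35720218-35769967, MDC1 (ENSG00000137337) at chr6:30699807-30717889, TP53BP1 (ENSG00000067369) at chr15:43403061-43510728 and BRCA1 (ENSG00000012048) at chr17:43044295-43170245. Values are per gene. It is not stated whether the counting used strand. CHEK2 shares 392 bases with HSCB on the opposite strand (20.3 to 30.9 TPM) and CHEK1 shares 80 bases with STT3A on the same strand (67.5 to 94.2 TPM), so reads in those stretches cannot be assigned with certainty. TP53BP1 overlaps TUBGCP4 over 6711 bases, with TUBGCP4 at 3.23 to 5.77 TPM. The 7 annotated CHEK2 pseudogenes reached at most 0.61 TPM in any library, and how reads shared with them were split is not stated.

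Promoter windows are shown for the 3 genes with the lowest levels in TRF medium relative to normal medium, CHEK2, ATM and TP53BP1, and for CLSPN, whose lowest group was CON. Each is the 250 bases before an annotated RefSeq start (GRCh38.p14), written 5′ to 3′ on the strand of the gene, with capitals marking a CCAAT box (CCAAT, or ATTGG where it lies on the other strand) or a cell cycle homology region (TTTGAA). The windows are chr22:28741821-28742070 (minus strand) for CHEK2, chr11:108222817-108223066 (plus) for ATM, chr15:43510641-43510890 (minus) for TP53BP1 and chr1:35769979-35770228 (minus) for CLSPN.
CHEK2: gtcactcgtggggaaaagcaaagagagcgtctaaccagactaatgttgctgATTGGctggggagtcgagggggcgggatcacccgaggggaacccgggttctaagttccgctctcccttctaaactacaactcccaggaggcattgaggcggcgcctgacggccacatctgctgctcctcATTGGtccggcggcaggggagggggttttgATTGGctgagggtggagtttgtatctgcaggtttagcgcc
ATM: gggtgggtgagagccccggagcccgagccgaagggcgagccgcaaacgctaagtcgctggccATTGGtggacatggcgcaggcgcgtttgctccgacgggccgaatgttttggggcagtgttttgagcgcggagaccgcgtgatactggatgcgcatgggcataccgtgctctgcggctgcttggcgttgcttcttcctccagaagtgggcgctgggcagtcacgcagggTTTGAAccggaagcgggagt
TP53BP1: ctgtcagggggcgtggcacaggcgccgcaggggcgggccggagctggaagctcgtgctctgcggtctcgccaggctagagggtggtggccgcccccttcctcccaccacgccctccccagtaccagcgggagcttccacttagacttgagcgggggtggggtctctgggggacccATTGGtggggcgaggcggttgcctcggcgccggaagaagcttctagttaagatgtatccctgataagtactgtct
CLSPN: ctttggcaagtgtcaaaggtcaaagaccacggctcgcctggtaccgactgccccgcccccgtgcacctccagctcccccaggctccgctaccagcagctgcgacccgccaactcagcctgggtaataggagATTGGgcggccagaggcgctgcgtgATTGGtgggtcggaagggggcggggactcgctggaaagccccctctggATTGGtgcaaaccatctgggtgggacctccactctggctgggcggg
CHEK2 and CLSPN each hold 3 CCAAT boxes, ATM holds 1 CCAAT box and 1 cell cycle homology region, and TP53BP1 holds 1 CCAAT box. Windows were found for 9 of the 10 genes, 13 windows in all, and WEE1 had none. Both strands were searched. At least 1 CCAAT box stands in 32.0% and at least 3 stand in 2.93% of the 35116 RefSeq windows of this length. TTTGAA stands in 13.3% of them and, among the checkpoint genes, in MDC1 and 1 of the ATM windows. An E2F site, written TTTCCCGC, TTTGGCGC, TTTGCCGC or TTTCGCGC, stands in 2.79% of all windows and in 0 of the 13, which says only that these letters are not in these windows. Among the windows not shown, 1 of CHEK1 also holds 3 CCAAT boxes. Any link between these motifs and the mRNA levels described below was not tested.

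Levels are TPM, the share of a gene among all transcripts of a library after division by transcript length, so genes can be compared with each other. Depth behind each value is unknown, because TPM keeps no read counts. Between 13029 and 14028 genes per library reached 1 TPM. The RNA had high keratin mRNA (KRT7, KRT8 and KRT18, with the 6 epithelial markers summing to 1850 to 2881 TPM). The epithelial markers EPCAM, KRT19 and CDH1 and all 4 lung lineage markers, however, had means under 1 TPM over the 12 libraries. In the DDP group alone SFTPC averaged 1.56 TPM, with 3.75 TPM in replicate 3, and NAPSA averaged 1.21 TPM. Summed leukocyte and endothelial markers stayed under 1 TPM in each library, and 1 of 6 fibroblast markers (COL1A1) averaged 1 TPM or more. Transcripts of the mitochondrial genome made up 6.37% of TRF replicate 3 and 8.29% to 10.8% of the other libraries. TRF replicate 2 was the highest TRF library for 8 of the 10 checkpoint genes and the lowest for 0. Every test of the 10 genes below was therefore also computed without each library. A library is named, or such libraries are counted, where leaving it out decides a call. For the other lists only the counts of called genes were recomputed that way, so their single calls carry no such check. In bulk RNA, fewer cells of a type and less RNA per cell cannot be told apart.

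In untreated CON cells the 10 genes spanned a modest range. TP53BP1 was highest, with 31.4 ± 1.55 TPM (SD, n = 3), followed by CHEK2 with 24.0 ± 0.521 TPM, WEE1 with 20.3 ± 0.535 TPM and CHEK1 with 17.1 ± 0.922 TPM. MDC1 (14.5 ± 0.245 TPM), BRCA1 (14.2 ± 0.452 TPM) and TOPBP1 (13.3 ± 0.747 TPM) came next, and neighbours in this trio had overlapping libraries. The ATM level was 7.85 ± 1.12 TPM, ATR stood at 5.65 ± 0.207 TPM and CLSPN was lowest at 4.71 ± 0.02 TPM. In TRF + DDP cells the order differed: TP53BP1 (18.1 ± 1.75 TPM) and CHEK1 (16.1 ± 1.1 TPM) led with overlapping libraries, CHEK2 (9.71 ± 0.233 TPM) had moved from the second to the seventh place, and ATM (4.27 ± 0.653 TPM) was last. The largest ratios between the highest and the lowest group mean were 2.61 for CHEK2 and 2.6 for ATM, and the smallest were 1.22 for both TOPBP1 and ATR. All 10 genes were above 0 in each library, with 2.25 TPM, for ATM in TRF replicate 3, as the lowest value.

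**Figure D1:**
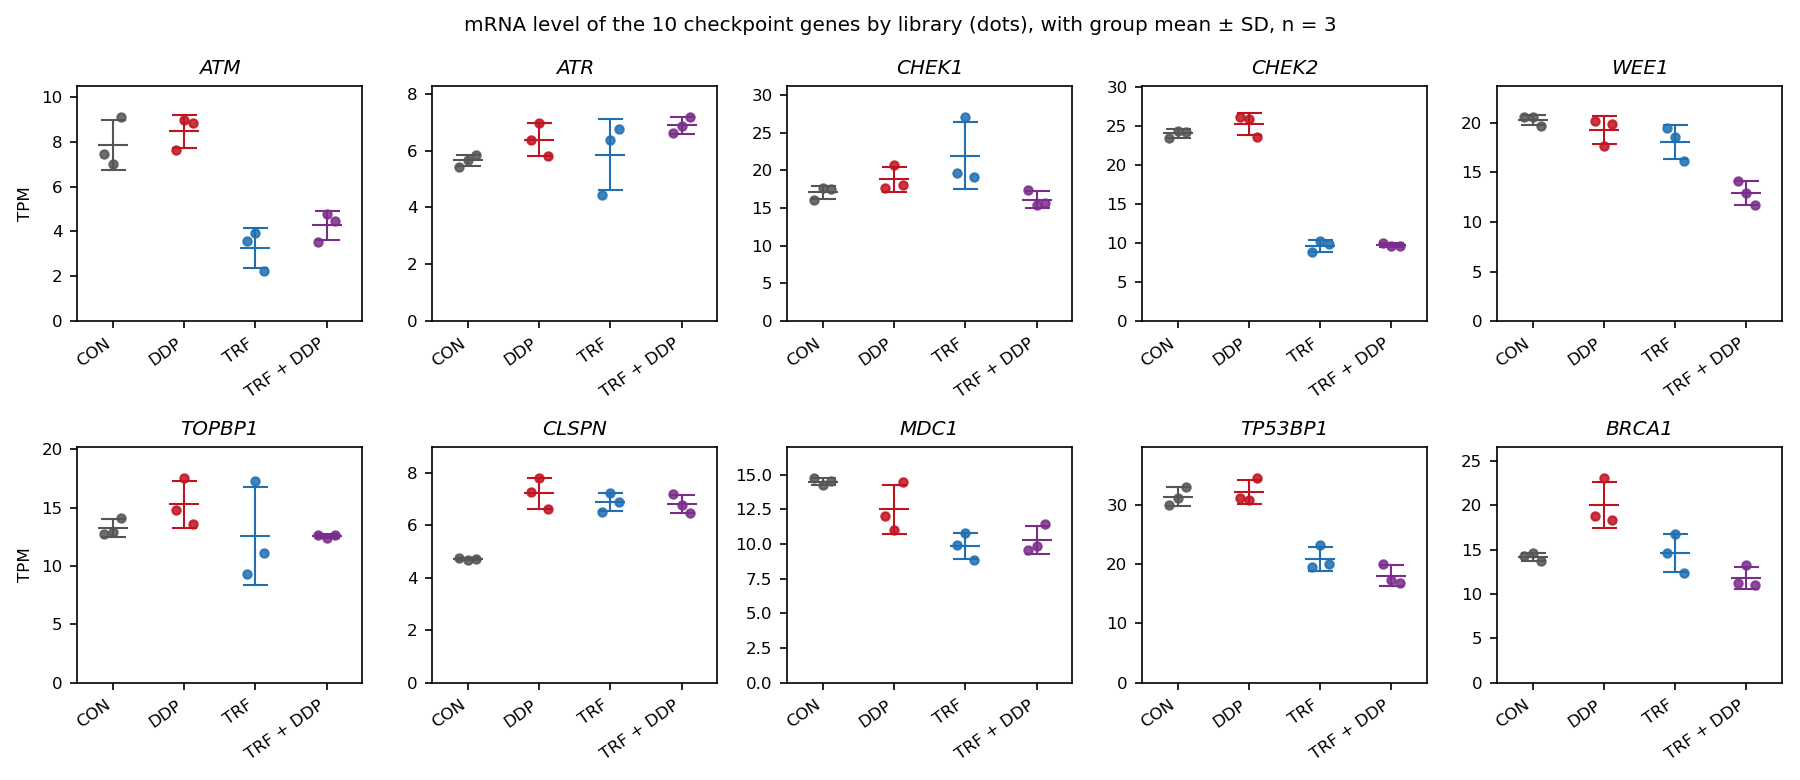
TPM of each of the 10 checkpoint genes (1 panel per gene, vertical axis from 0) in the 4 groups; dots are libraries, the horizontal bar and whiskers are the mean ± SD of 3 libraries. CHEK2, ATM and TP53BP1 separate the 2 groups in normal medium from the 2 in TRF medium, with CHEK2 at 23.4 to 26.2 TPM against 8.82 to 10.3 TPM.

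The first comparison asked how cisplatin alone changed the resistant cells. None of the 10 genes passed both thresholds in DDP against CON, an adjusted p under 0.05 (limma, Benjamini-Hochberg over 13854 tested genes) and a fold over 1.5, both on the log2(TPM + 1) scale. Of all tested genes, 1.86% were called higher and 0.159% lower. On the adjusted p alone 2 of the 10 passed, CLSPN and BRCA1, where 12.2% of all genes did. The median difference of the 10 was 0.12 (log2), against 0.06 for all genes.

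CLSPN measured 4.73, 4.69 and 4.71 TPM in CON and 7.25, 7.79 and 6.60 TPM in DDP. The groups did not overlap, and the log2 difference was 0.52 ± 0.08 (SE) with adjusted p = 0.00135 (limma). Since the added 1 TPM damps the changes of low genes, CLSPN fell short of the fold threshold here and passed it with a pseudocount of 0.1 TPM (0.60). For BRCA1 the libraries were at 14.27, 14.65 and 13.75 TPM in CON and 18.83, 23.08 and 18.34 TPM in DDP. Every DDP library was above every CON library, and the log2 difference was 0.46 ± 0.11 with adjusted p = 0.0204 (limma). BRCA1 no longer passed without DDP replicate 2 (0.36, adjusted p = 0.076), CON replicate 1 (adjusted p = 0.0594) or CON replicate 3 (adjusted p = 0.0641), or with no filter on low genes (adjusted p = 0.0681, limma). The kinases showed smaller differences, from -0.07 (WEE1) to 0.15 (ATR), with 95% intervals that all included 0 and reached at most 0.44, the upper bound for ATM. MDC1 had the lowest difference of the 10, -0.21, with a 95% interval from -0.43 to 0.02.

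The second comparison asked what restricted feeding did without the drug. CHEK2 and ATM fell in TRF against CON, and no checkpoint gene of the 10 rose past both thresholds. Among all genes 17.1% were called lower and 8.41% higher, so 2 of 10 lower is close to the background share. The median difference of the 10 was -0.14, against -0.11 for all genes. On the adjusted p alone 6 of the 10 passed, where 60.7% of all genes did.

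CHEK2, the kinase downstream of ATM, had 23.41, 24.37 and 24.24 TPM in CON and 8.82, 10.29 and 9.88 TPM in TRF. The lowest CON library was more than 2-fold above the highest TRF library. The log2 difference was -1.23 ± 0.07 with adjusted p = 1.81e-08 (limma), and it lay between -1.31 and -1.11 over all alternatives and left-out libraries. ATM measured 7.45, 6.99 and 9.12 TPM in CON and 3.59, 3.93 and 2.25 TPM in TRF. These groups did not overlap either, and ATM fell by 1.07 on the log2 scale (SE 0.16, adjusted p = 8.44e-05, limma). The call held without TRF replicate 3, the library with the lowest ATM value.

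Of the chromatin mediators of the break response, TP53BP1 and MDC1 were also low in TRF medium without passing the fold. TP53BP1, which counters the resection of DNA ends, measured 30.02, 31.23 and 33.09 TPM in CON and 19.54, 23.27 and 20.09 TPM in TRF. All TRF libraries were below all CON libraries, and the log2 difference was -0.57 ± 0.08 (adjusted p = 8.52e-05, limma), just inside the fold threshold. It passed the threshold without CON replicate 1 (-0.60), without TRF replicate 2 (-0.64) or with a pseudocount of 0.1 TPM (-0.59). MDC1, the reader of phosphorylated H2AX, had 14.74, 14.25 and 14.51 TPM in CON and 9.94, 10.77 and 8.85 TPM in TRF, with a log2 difference of -0.52 ± 0.10 (adjusted p = 0.000839, limma). BRCA1, by contrast, measured 14.69, 16.73 and 12.40 TPM in TRF, overlapping with CON, and its difference of 0.03 had a 95% interval from -0.22 to 0.27.

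None of the genes of the ATR arm was called in TRF against CON. CLSPN measured 6.52, 7.24 and 6.89 TPM in TRF, all above its 3 CON libraries, with a log2 difference of 0.46 ± 0.08 (adjusted p = 0.000298, limma). Quantile normalization brought it past the fold threshold (0.67). CHEK1 measured 16.02, 17.69 and 17.53 TPM in CON and 19.69, 27.14 and 19.08 TPM in TRF, with a difference of 0.33 ± 0.12 (adjusted p = 0.0265, limma) in which TRF replicate 2 was far above the other TRF libraries. Without that library the difference was 0.17 (adjusted p = 0.0911, limma), and the pass was also lost without CON replicate 1 (adjusted p = 0.0867), with no filter (0.0731) and in a fit of these 2 groups alone (0.0582). ATR itself (0.02, interval -0.24 to 0.29) and TOPBP1 (-0.11, interval -0.48 to 0.25) showed no difference beyond their spread in this fit. For TOPBP1 this depended on the setting. Its difference ranged from -0.35 to 0.06 over the alternatives, and its lowest adjusted p was 0.0135 (limma). The TRF libraries of TOPBP1 lay far apart, at 9.29, 17.28 and 11.15 TPM. WEE1 measured 20.56, 20.61 and 19.66 TPM in CON and 19.42, 18.54 and 16.13 TPM in TRF, and the difference of -0.16 did not pass the test (adjusted p = 0.112, limma).

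**Figure D2:**
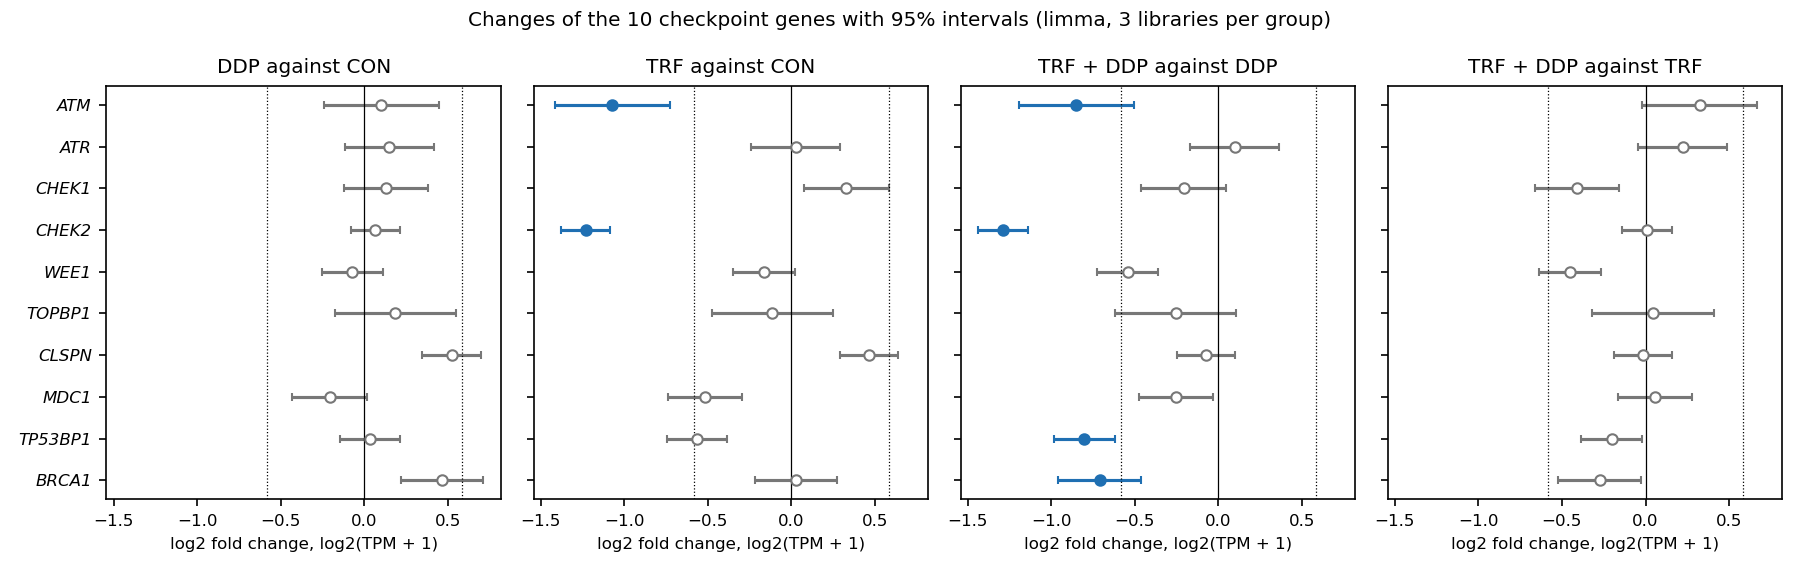
Log2 differences of the 10 genes (rows) on the log2(TPM + 1) scale in 4 comparisons (panels), with 95% intervals; filled blue points were called lower, open points were not called, and dotted lines mark a fold of 1.5 in either direction. CHEK2 (-1.23 and -1.29) and ATM (-1.07 and -0.85) are called in both comparisons of TRF medium with normal medium, TP53BP1 and BRCA1 in the one with cisplatin, and no gene in either comparison of cisplatin.

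The third comparison asked what restricted feeding changed in cells that also received the drug. CHEK2, ATM, TP53BP1 and BRCA1 fell in TRF + DDP against DDP, 4 of the 10 genes, and 0 rose. In all tested genes 21.4% were called lower and 11.8% higher, and on the adjusted p alone 6 of the 10 passed where 65.4% of all genes did. The median of the 10 was -0.40, against -0.10 for all genes. The 4 calls held under every alternative and without each library.

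CHEK2 was at 26.15, 25.89 and 23.53 TPM in DDP and at 9.98, 9.55 and 9.61 TPM in TRF + DDP, a log2 difference of -1.29 ± 0.07 (adjusted p = 6.96e-09, limma). ATM went from 7.63, 8.95 and 8.82 TPM to 3.54, 4.80 and 4.47 TPM, with a difference of -0.85 ± 0.16 (adjusted p = 0.000432, limma). In both kinases the groups were clearly apart. TP53BP1 had 31.23, 30.91 and 34.57 TPM in DDP and 20.08, 17.34 and 16.82 TPM in TRF + DDP, a difference of -0.80 ± 0.08 (adjusted p = 3.09e-06, limma). BRCA1 measured 11.26, 13.29 and 11.0 TPM in TRF + DDP, below each DDP library, with a difference of -0.71 ± 0.11 (adjusted p = 0.000125, limma). BRCA1 was thus called here, where the reference is the group with its highest level, and not in TRF against CON.

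WEE1, whose product holds CDK1 inactive, had 20.22, 17.69 and 19.89 TPM in DDP and 14.10, 12.91 and 11.74 TPM in TRF + DDP. All 3 combined libraries were below the DDP libraries, but the log2 difference of -0.54 ± 0.08 (adjusted p = 0.000107, limma) stayed inside the fold threshold, and it passed without DDP replicate 2 or TRF + DDP replicate 1 (-0.60 each). MDC1 measured 12.03, 11.02 and 14.44 TPM in DDP and 9.54, 9.88 and 11.46 TPM in TRF + DDP, overlapping, with a difference of -0.25 (adjusted p = 0.0455, limma). This pass was lost in 13 of 20 alternatives, among them quantile normalization (-0.10, adjusted p = 0.403, limma) and leaving out DDP replicate 3 (-0.15, adjusted p = 0.205). CLSPN was level between these groups, with 7.17, 6.76 and 6.47 TPM in TRF + DDP and a 95% interval of the difference from -0.25 to 0.10. The intervals of CHEK1 (-0.46 to 0.04), ATR (-0.17 to 0.36) and TOPBP1 (-0.62 to 0.11) also included 0. Over the alternatives their lowest adjusted p were 0.0271, 0.0399 and 0.0317 (limma), in the same order.

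Cisplatin added in TRF medium moved none of the 10 past both thresholds. Of all genes, 10.2% were called higher and 6.1% lower in TRF + DDP against TRF, and on the adjusted p alone 2 of the 10 passed where 47.9% of all genes did. The 2 were WEE1 (-0.45 ± 0.08, adjusted p = 0.000892, limma) and CHEK1 (-0.41 ± 0.12, adjusted p = 0.0115, limma). CHEK1 measured 17.38, 15.35 and 15.62 TPM in TRF + DDP, below all TRF libraries, and WEE1 was likewise below all TRF libraries. With each library left out in turn the CHEK1 difference ranged from -0.50 to -0.25, and its adjusted p stayed under 0.05 (limma). TRF replicate 2, the highest CHEK1 library, is part of this comparison too. Some genes that did not pass in the main fit did so in an alternative. The lowest adjusted p were 0.00848 for TP53BP1, 0.0111 for BRCA1, 0.0448 for ATM and 0.0460 for TOPBP1 (limma). CHEK2 differed by 0.01 with a narrow interval from -0.14 to 0.16. The ATM difference was 0.32, with an interval from -0.02 to 0.67 and overlapping libraries. For ATR the libraries were at 4.42, 6.36 and 6.75 TPM in TRF and 6.61, 6.86 and 7.19 TPM in TRF + DDP, with an interval from -0.04 to 0.49.

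Against untreated cells, the combined treatment had 4 of the 10 genes lower and 0 higher, where 19.5% of all genes were called lower and 15.6% higher. The log2 differences were -1.22 for CHEK2, -0.77 for TP53BP1, -0.75 for ATM and -0.62 for WEE1, with adjusted p of 8.9e-09, 4.15e-06, 0.00106 and 3.44e-05 (limma). This comparison shares its CON libraries with the comparisons of DDP and TRF with CON, and its TRF + DDP libraries with those described before it, so it adds no independent evidence for CHEK2, ATM and TP53BP1. The WEE1 call was narrow: it fell inside the fold threshold with quantile normalization (-0.58), with TMM-style scaling (-0.58) and without TRF + DDP replicate 3 (-0.55). On the adjusted p alone 6 of the 10 passed, where 67.2% of all genes did, the other two being CLSPN (0.45) and MDC1 (-0.46). ATR had its highest group mean here, 6.89 ± 0.291 TPM, all 3 libraries lying above those of CON, without passing the test (0.25, adjusted p = 0.0937, limma). Over the alternatives the lowest adjusted p was 0.0174 for ATR and 0.0124 for BRCA1 (limma).

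The interaction asked whether the effect of cisplatin differed between the media. It was lower in TRF medium for 4 of the 10 genes (BRCA1, CLSPN, CHEK1 and WEE1) and higher for 0, at an adjusted p under 0.05 with no fold threshold, where 16.3% of all genes were lower and 13.5% higher. BRCA1 had the largest value: the DDP effect was 0.46 in normal medium and -0.28 in TRF medium, a difference of -0.74 ± 0.16 (adjusted p = 0.00449, limma). The CLSPN effect was 0.52 in normal medium and -0.02 in TRF medium, a difference of -0.54 ± 0.11 (adjusted p = 0.00383, limma). CLSPN was already high in TRF without the drug, and its libraries in DDP, TRF and TRF + DDP overlapped with each other and lay above CON.

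For CHEK1 the effects were 0.13 and -0.41, a difference of -0.54 ± 0.16 (adjusted p = 0.0271, limma), and for WEE1 they were -0.07 and -0.45, a difference of -0.38 ± 0.12 (adjusted p = 0.0322, limma). With libraries left out, the CHEK1 difference ranged from -0.63 to -0.38. Both calls, of CHEK1 and of WEE1, were fragile. With no filter on low genes each had an adjusted p of 0.0823. CHEK1 lost its call without CON replicate 1 (0.0631), DDP replicate 2 (0.0595), TRF + DDP replicate 2 (0.0615) or TRF + DDP replicate 3 (0.0577), and WEE1 lost its call without any one of 9 of the 12 libraries (adjusted p of 0.0531 to 0.0757). BRCA1 and CLSPN stayed called without each library. CHEK2 (-0.06, interval -0.27 to 0.15), ATM (0.22, interval -0.26 to 0.71), ATR (0.07), TOPBP1 (-0.14), MDC1 (0.26) and TP53BP1 (-0.24) did not pass. The CHEK2 interval was narrower than that of ATM, and with an interval as wide as the latter effects of moderate size could not be detected.

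**Figure D3:**
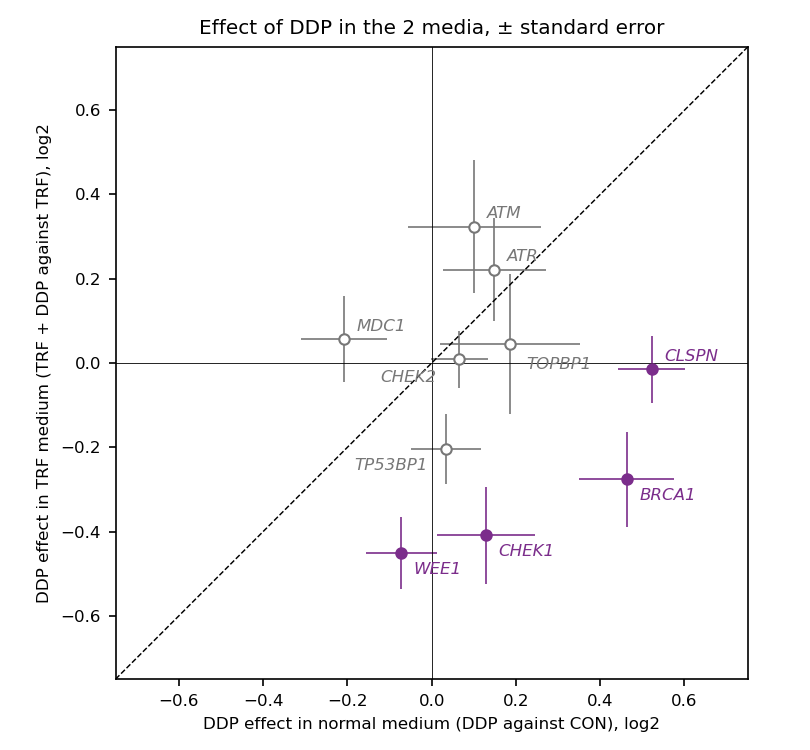
Effect of DDP on each of the 10 genes in normal medium (horizontal, DDP against CON) and in TRF medium (vertical, TRF + DDP against TRF), as log2 differences ± SE from separate libraries; the dashed line marks equal effects and filled purple points passed the interaction test. BRCA1, CLSPN, CHEK1 and WEE1 lie below the line, with BRCA1 at 0.46 and -0.28.

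The wider checkpoint list held 54 further genes in 5 roles, all of them tested. In DDP against CON 1 of the 54 was called, MDM2 (1.13 ± 0.12, adjusted p = 0.000179, limma), which encodes a ubiquitin ligase. In TRF against CON 2 rose and 5 fell, in TRF + DDP against DDP 8 rose and 10 fell, and in TRF + DDP against TRF 3 rose and 5 fell. Against CON the combination had 11 higher and 8 lower, and the interaction was higher for 5 and lower for 9. These counts stand against the background shares of all genes given above for each comparison, and the difference from them was not tested. The medians of the 54 were -0.03 in TRF against CON and -0.19 in TRF + DDP against DDP.

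Among the 12 genes that bring ATR to forks and activate it, 1 rose and 1 fell in TRF against CON. TIPIN, the partner of TIMELESS at the fork, rose (1.02) from 7.64, 9.38 and 7.66 TPM to 16.68, 18.21 and 18.12 TPM, and RPA3, the small subunit of RPA, fell (-0.73). Cells given TRF + DDP had 4 of the 12 higher than DDP cells and 0 lower: HUS1 (0.85) and RAD1 (0.64) of the 9-1-1 clamp, the ATR partner ATRIP (0.69), and TIPIN (0.79). HUS1 went from 6.40, 5.18 and 6.91 TPM in DDP to 11.79, 11.59 and 12.09 TPM in TRF + DDP. The median of the 12 was -0.24 in this comparison, and ATR itself was not called in any comparison.

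Of the 17 break sensing and chromatin genes, 1 fell in TRF against CON, PAXIP1 (-0.61), a partner of TP53BP1. Against DDP the combination had 3 lower and 0 higher: BABAM2 (-1.11), a subunit of the BRCA1-A complex, MRE11 (-0.80), the nuclease of the MRN complex that activates ATM, and BRIP1 (-0.69), the BRCA1-bound helicase. BABAM2 was at 60.52, 55.45 and 63.44 TPM in DDP and 27.12, 29.88 and 24.38 TPM in TRF + DDP, and it also fell against TRF (-0.90). RIF1, which acts with TP53BP1, rose in TRF + DDP against TRF (0.61). The remaining members of this role were not called in these comparisons.

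The 11 cell cycle targets had the most calls of the 5 roles in TRF + DDP against DDP, 7 in all. Of these, 5 fell and 2 rose. PLK1, a mitotic kinase, fell by 1.32 on the log2 scale, from 81.43, 72.87 and 85.38 TPM to 33.32, 31.67 and 29.17 TPM. The CDK-activating phosphatases split: CDC25B (-1.25) and CDC25C (-1.09) fell and CDC25A rose (1.06). CDC25A had also risen in TRF against CON (0.77). Against TRF, 4 of the 11 fell, PLK1 (-1.58), CCNB1 (-0.80), CDC25B (-0.66) and CDC25C (-0.63). WEE1 and these 4 genes were all lower in TRF + DDP than in TRF, although WEE1 did not reach the fold.

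In the 7 off-switches, MDM2 and PPM1D, the phosphatase that reverses ATM signalling, were highest in TRF + DDP. MDM2 had 184.02, 184.30 and 184.23 TPM there, against 24.39, 36.19 and 25.17 TPM in TRF (2.67), and PPM1D rose by 1.56 on the log2 scale over TRF. USP28, a deubiquitinase that acts with TP53BP1, fell in TRF + DDP against DDP (-0.61). Of the 7 kinases and maturation factors related to ATM and ATR, TRRAP (-0.78) and PRKDC (-0.72), the catalytic subunit of DNA-PK, fell in TRF against CON. TRRAP also fell (-0.95) and TELO2, which stabilises these kinases, rose (0.80) in TRF + DDP against DDP. All values in the account of the 54 genes are log2 differences or TPM as written, and all those called had limma adjusted p under 0.05.

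**Figure D4:**
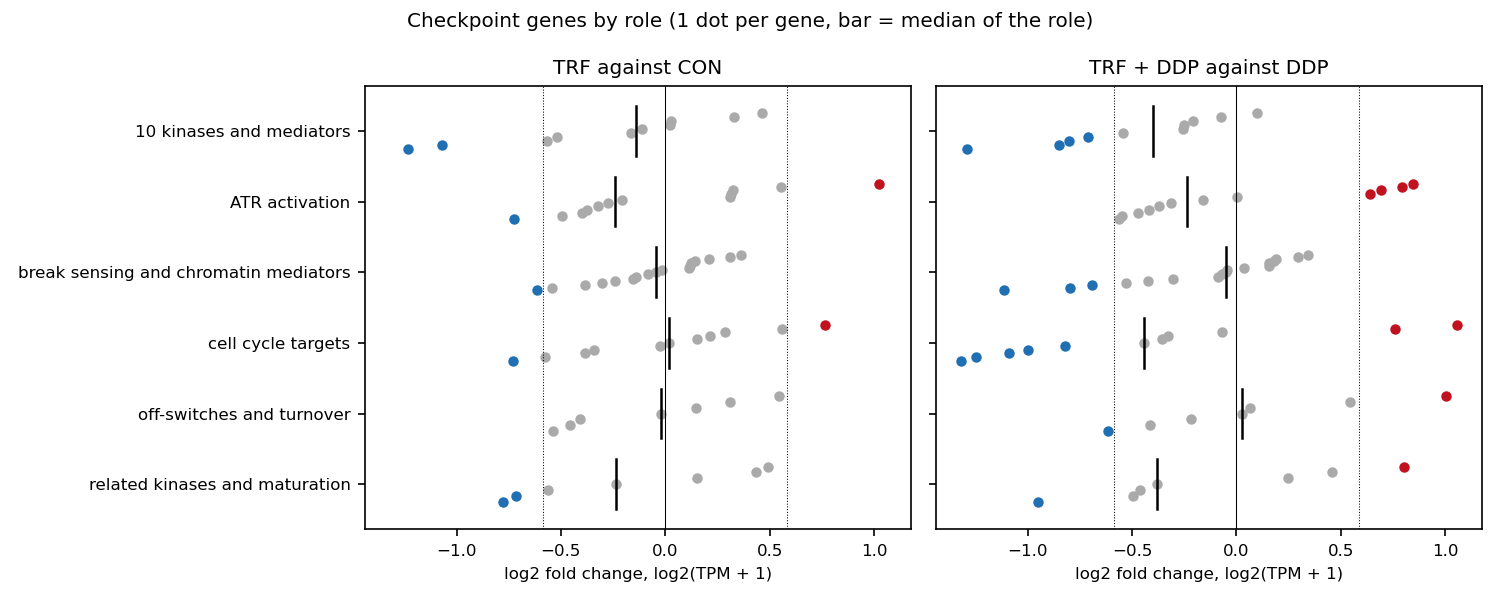
Log2 differences on the log2(TPM + 1) scale for the 10 checkpoint genes (top row) and the 54 wider genes by role, in TRF against CON (left) and TRF + DDP against DDP (right); each dot is a gene, red was called higher, blue lower, grey not called, and bars are medians. The cell cycle targets reach from PLK1 at -1.32 to CDC25A at 1.06 on the right.

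Lists of cell cycle genes and of p53 targets were counted in the same comparisons. They are not separate from the wider list: CCNB1, CDK1 and PLK1 are also cell cycle targets, and MDM2 and PPM1D are also off-switches. The counts stand against the background shares given above for each comparison, and the difference from them was not tested. Of 15 G2 and mitosis genes 0 were called in DDP against CON, 4 fell in TRF against CON (NUSAP1 -1.33, CENPF -0.83), 13 fell in TRF + DDP against DDP (NUSAP1 -1.87, CENPF -1.50) and 7 fell in TRF + DDP against TRF (PLK1 -1.58, AURKA -1.19). Of 20 S phase genes 3 rose and 2 fell in TRF against CON, 4 rose and 4 fell in TRF + DDP against DDP, and 5 rose and 3 fell in TRF + DDP against TRF. Of 18 p53 targets 11 rose in DDP against CON, led by FDXR (1.32) and CDKN1A (1.22). In TRF against CON 2 of them rose and 6 fell (BTG2 -0.96, TP53INP1 -0.95), with a median of -0.44. In TRF + DDP against DDP 12 rose and 1 fell (PMAIP1 2.33, GADD45A 1.85, median 0.71), and 16 rose and 0 fell in TRF + DDP against TRF, led by CDKN1A (2.91) and BTG2 (2.75). In the interaction 12 of the G2 and mitosis genes were lower, 6 of the S phase genes higher and 11 lower, and 16 of the p53 targets higher. The part of cell cycle composition in the values of WEE1, CHEK1, BRCA1 and CLSPN was not tested.

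Scaling bears on the comparisons of media. The median of all genes was -0.11 in TRF against CON and -0.10 in TRF + DDP against DDP, and quantile normalization took these to 0.00 and 0.01. Relative to the median gene, CHEK2 then stood at -1.11 and -1.18, ATM at -0.88 and -0.64, and TP53BP1 at -0.50 and -0.73 in the same order. The split of all called genes was 32.9% higher in TRF against CON, and 49.8% with quantile normalization or 46.6% with TMM-style scaling. It was 35.5% in TRF + DDP against DDP (48.9% and 47.0%), 62.6% in TRF + DDP against TRF (49.6% and 52.4%) and 92.1% in DDP against CON (78.6% and 82.0%).

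The genes differ in the length of DNA they span. ATM spans 147 kb, ATR 130 kb, BRCA1 126 kb and TP53BP1 108 kb, and their log2 differences in TRF against CON were -1.07, 0.02, 0.03 and -0.57. TOPBP1 spans 64.2 kb, CHEK2 54.7 kb, CHEK1 51.1 kb and CLSPN 49.8 kb, with differences of -0.11, -1.23, 0.33 and 0.46. The median span of protein-coding genes in the annotation is 27.1 kb, and WEE1 (19.8 kb, -0.16) and MDC1 (18.1 kb, -0.52) are the shortest of the 10. The part of gene length in these differences was not tested.

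For the 7 genes called in at least 1 comparison, the genes with the most similar profile were found over the 4 group means of log2(TPM + 1), centred per gene, among the 9886 genes averaging 5 TPM or more. CHEK2 was nearest to ECH1, LINC02893 and PDE7A (Euclidean distances 0.05 each), and ECH1 went from 437 TPM in CON to 187 TPM in TRF. ATM was nearest to MARCHF9, TFPI and RFX5 (0.07 to 0.08), and TP53BP1 to PI4KA, HDAC6 and HS1BP3 (0.02 to 0.05). BRCA1 was nearest to LINC02945 (0.07) and CKLF (0.08), with an unnamed gene between them. WEE1 was nearest to RRAS (0.02), SQOR (0.02) and UTP18 (0.03), CHEK1 to ACTN1, MAP4K4 and CASP2 (0.02 to 0.05), and CLSPN to TNFAIP8 (0.02), DTL (0.08) and GMPPB (0.09). With 4 group means many genes share a shape, and no checkpoint gene of the 10 was among the nearest 3 of another.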

How the data were processed

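RNA of 12 A549/DDP libraries (CON, DDP, TRF and TRF + DDP, 3 each) was extracted with TRIzol and selected with oligo(dT). The authors trimmed (SeqPrep, sickle), aligned (HISAT2) and assembled (StringTie) the reads and deposited TPM per library with group means. The means were not used here. The notes of the authors also name edgeR. The sources used here give no versions, build, quantifier or strand setting. The methods name A549 cells and the labels A549/DDP.

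The deposited TPM was used as log2(TPM + 1). Testing covered the 13854 genes averaging 1 TPM or more, in 1 fit of the 4 groups with limma 3.58.1 (R 4.3.3, trend and robust). P-values were adjusted by Benjamini-Hochberg in each of 6 comparisons. Calls needed adjusted p < 0.05 together with a fold above 1.5, or, for the interaction, the adjusted p alone. TPM gives no depth, so precision rests on 3 libraries a group. All 12 value columns were mapped to samples.

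The named genes are the 10, the called genes of each wider role described (the 4 largest where more were called), up to 2 called genes of each context list and the 3 nearest profiles. Not every called gene is named. Members, lists and the rule were chosen with earlier results of these data known. Promoters are RefSeq windows (GRCh38.p14) and coordinates GENCODE 29. The test of TRF + DDP against DDP was tried on simulated data with independent noise. The other comparisons, the interaction, changes close to the fold threshold and scaling shifts were not simulated.

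Alternatives covered scaling (quantile, or TMM-style with trims of 0.3 and 0.05), filtering (none, or 1 TPM required in all libraries), a 0.1 TPM pseudocount, limma without trend, fits of the compared groups only, other fold thresholds, a replicate block and leaving out each library. Figures were drawn with Python 3.11.15 and matplotlib 3.10.9.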

Additional observations from a re-analysis of the deposited data

Results flagged for a closer look

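In 4 of the 10 checkpoint genes the effect of DDP differed between the media by a test of the difference itself (the interaction in limma, adjusted over 13854 genes). By the same test 16.3% of all genes were lower and 13.5% higher, and the difference from these shares was not tested. The DDP effect in TRF medium minus that in normal medium was -0.74 for BRCA1 (adjusted p = 0.00449), -0.54 for CLSPN (adjusted p = 0.00383), -0.54 for CHEK1 (adjusted p = 0.0271) and -0.38 for WEE1 (adjusted p = 0.0322), all on the log2(TPM + 1) scale. BRCA1 was higher in 3 of 3 DDP libraries than in any CON library, and 0 of 10 genes passed this test in the opposite direction. MDC1, ATM and ATR had positive differences that did not pass. Over the alternatives the adjusted p ranged from 0.000659 to 0.0177 for BRCA1, from 0.00155 to 0.0114 for CLSPN, from 0.0125 to 0.0823 for CHEK1 and from 0.0131 to 0.0823 for WEE1 (limma). No outlying library was looked for, because groups of 3 are too small for that test.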

How the results depend on the processing

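The number of the 10 genes called in DDP against CON was 1 with a pseudocount of 0.1 and 2 with no fold threshold (main 0). With no fold threshold it was 6 in TRF against CON and 2 in TRF + DDP against TRF, and in the interaction it was 2 with no filter and 1 at a fold of 1.5, with 2 to 4 when libraries were left out. Of the 54 wider genes, those called in DDP against CON were 3 with a pseudocount of 0.1, 6 with no fold threshold and 1 to 3 with libraries left out (3 without CON replicate 1 or DDP replicate 3, 2 without CON replicate 3 or DDP replicate 1). In TRF against CON they were 11 with a pseudocount of 0.1 and 35 with no fold threshold, which also gave 39 in TRF + DDP against DDP, 26 against TRF and 39 against CON. The interaction had 7 at a fold of 1.5. All genes called with no fold threshold numbered 1690, 8412, 9056, 6639 and 9314 in DDP and TRF against CON and in TRF + DDP against DDP, TRF and CON, and 1845 in the interaction at a fold of 1.5. Fewer or more calls there follow from the threshold itself.

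Directions turned only in genes that were not called. In DDP against CON quantile normalization gave -0.00151 for ATM, -0.0119 for CHEK2 and -0.0435 for TP53BP1, and TMM-style scaling gave -0.0123 for CHEK2 and -0.0443 for TP53BP1. In TRF against CON quantile normalization gave 0.0249 for TOPBP1. In TRF + DDP against DDP CLSPN was 0.12 and 0.0329 with the 2 scalings. In TRF + DDP against TRF quantile normalization gave -0.0826 for CHEK2, -0.0504 for TOPBP1 and -0.0319 for MDC1, and TMM-style scaling -0.0627, -0.0281 and -0.0143. With libraries left out, TP53BP1 ranged from -0.0158 to 0.0702 in DDP against CON. In TRF against CON TOPBP1 ranged from -0.35 to 0.0639, ATR from -0.0739 to 0.18 and BRCA1 from -0.0698 to 0.13. In TRF + DDP against TRF CHEK2 ranged from -0.0492 to 0.0514, TOPBP1 from -0.13 to 0.28, CLSPN from -0.0492 to 0.0171 and MDC1 from -0.0155 to 0.12. In the interaction ATR ranged from -0.0873 to 0.17 and TOPBP1 from -0.32 to 0.0951.

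The deviations of same-numbered libraries correlated between -0.08 and 0.05 in the pairs of groups compared. This shows no strong shared effect of the replicate number and cannot show whether the samples were paired by design. The replicate block left 0, 2, 4, 0, 4 and 4 of the 10 genes called in DDP and TRF against CON, in TRF + DDP against DDP, TRF and CON and in the interaction. Depth is unknown, so no detection limit can be given. With no filter the CHEK1 and WEE1 interaction calls were lost while their differences did not move, and the cause was not tested.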
